A study of Mus musculus with 34 samples.

Results

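The genes Hmgcs1, Idi1, Fdft1, Sqle, Lss, Insig1, Abcg5 and Abcg8 of cholesterol synthesis and sterol export were followed in the distal colon of mice with recurrent TNBS colitis. They were chosen by their log2 differences between TNBS and healthy mice in these same arrays, and their probes were taken by symbol from the platform annotation, so every difference from healthy mice is given for them as a description without a test. Of the 8 symbols, 7 had probes, 11 in all, among 25697 probes of the array. No probe carried the symbol Fdft1, which was not analysed here. A filter on low values kept 10 of the 11 probes and 14010 named genes. An Insig1 probe did not pass because it stood above the lower limit of 5 on only 1 array.

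Total RNA of 34 female BALB/c mice, described as 8 weeks old when obtained, was hybridised to 1-colour Illumina bead arrays, with 1 array per mouse. TNBS is a hapten that, given in ethanol, makes the colon wall the target of an immune response. Mice were sensitised through the skin of the back on day 0, and TNBS in ethanol was instilled into the rectum at 0.75 mg on day 7, 1.5 mg on day 14 and 2.25 mg on day 21. The groups were 5 mice each on days 9, 14, 16, 21, 23 and 28, that is 2 or 7 days after an instillation, and 4 healthy mice. Whether the healthy mice had also been sensitised is not given in the sources used here, and no group given ethanol without TNBS was analysed here. The instilled amount increases with the day, so time and amount cannot be told apart. Age at sampling is not given by group, so it cannot be told apart from time either. The paper mentions colons taken before the first instillation, but the labels give no day for the healthy mice. Values are normalised signals on the log2 scale, on which 1 unit is a doubling, and background is the level of receptor probes of the nose taken as silent in colon.

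Cholesterol is built from acetyl units in a chain of enzymes, with HMG-CoA synthase, the product of Hmgcs1, near its start. Idi1 rearranges the isoprenoid building block, Sqle oxidises squalene, and Lss closes the oxidised squalene to lanosterol, the first sterol. When sterol is scarce in the membrane of the endoplasmic reticulum, the factor SREBP2 is released and turns on these genes, and INSIG1 holds it back when sterol is plentiful. ABCG5 and ABCG8 form a joint transporter that moves plant sterols and cholesterol out of intestinal epithelial cells into the lumen, and both genes are known targets of the oxysterol receptor LXR.

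Markers of colonic epithelium such as Cdh1, Vil1, Krt20 and Car4 were above background on all 34 arrays, and Slc26a3 on all 4 healthy arrays but on 18 of 34 in all. In 5 arrays, those of day 9 mice 2, 3 and 5, day 14 mouse 5 and day 21 mouse 5, markers of skeletal muscle stood over 3 log2 units above the healthy mean. Calls lost and day 9 differences that moved without these 5 arrays are given below.

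Both arms of this set lay below the healthy level in all TNBS groups, but the days of their lowest means differed. The 4 synthesis enzymes were lowest on day 21, and the transporter genes were lowest on day 23 and closest to the healthy level on day 21. These orders of means are a description. In each gene the gap to the next TNBS day was narrower than the larger SD of the 2 days. For Lss the gap between days 21 and 14 was 0.37 (SD 0.40), and for Abcg5 that between days 23 and 16 was 0.76 (SD 0.77). Neither day 21 against 14 nor day 23 against 16 was tested. With the brightest probe standing for a gene, the mean lay below that of healthy mice in all 42 combinations of gene and day, by as little as 0.00 for Insig1 on day 16, at 99.8% of the healthy signal. In 14 of the 42, every TNBS mouse lay below every healthy mouse. By day this held for 1, 4, 2, 3, 2 and 2 of 7 genes on days 9, 14, 16, 21, 23 and 28, while of all 14010 genes it held for 2.63%, 2.73%, 4.97%, 2.81%, 4.53% and 3.80% on these days. Since the members were proposed with these arrays in view, nothing is read from these counts. Leaving out healthy mouse 1 alone raised the 14 to 23, and leaving out the 5 arrays with muscle markers gave 15.

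**Figure D1:**
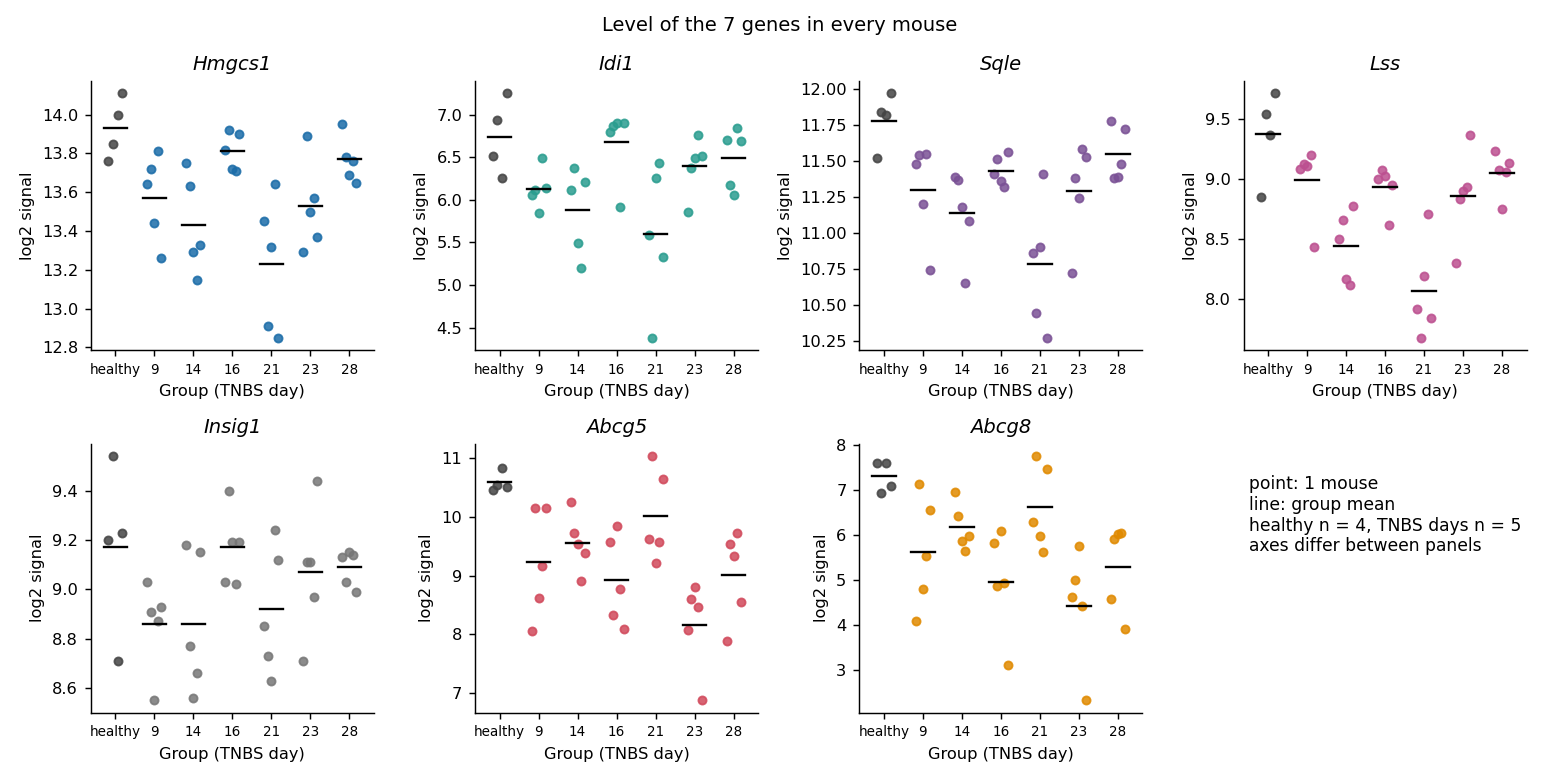
Normalised log2 signal (y axis, a different range in each panel) of the 7 genes in each of the 34 mice, by group (x axis, healthy mice and then the TNBS days). Points are single mice and lines are group means. The synthesis enzymes have their lowest means on day 21 (Lss mean 8.07, against 9.37 in healthy mice), and Abcg5 and Abcg8 have theirs on day 23 (Abcg5 mean 8.16, against 10.59 in healthy mice).

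Lss showed the widest gap among the enzymes. On day 21 its log2 signal was 7.92, 7.68, 8.19, 8.71 and 7.84 in the 5 mice, against 8.85, 9.54, 9.36 and 9.71 in healthy mice. All day 21 mice lay below all healthy mice. The difference was -1.30 ± 0.21 on the log2 scale (SE of the fit, 95% interval -1.73 to -0.87), which is 40.6% of the healthy signal. On day 14 the values of 8.50, 8.66, 8.17, 8.12 and 8.77 were also all below the healthy ones, with a difference of -0.92 ± 0.21. On the other 4 days the groups overlapped, and the differences were -0.38 on day 9, -0.44 on day 16, -0.50 on day 23 and -0.32 on day 28. Ordered by mean, day 21 was followed by days 14, 23, 16, 9 and 28 and by the healthy mice. Only the step between days 14 and 23, of 0.42, was wider than the larger SD of the 2 neighbours (0.38).

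Sqle, the epoxidase that makes the first oxygen-requiring step, gave 10.86, 10.44, 10.90, 11.41 and 10.27 on day 21, against 11.52, 11.84, 11.82 and 11.97 in healthy mice. The groups did not overlap, and the difference was -1.01 ± 0.20, or 49.7% of the healthy signal. Its day 14 mice, between 10.65 and 11.39, also lay below all healthy mice. A dimmer Sqle probe was also lowest on day 21 (-1.20 ± 0.24), followed by day 23 (-0.72 ± 0.24) and day 14 (-0.64 ± 0.24), whereas the brighter probe was lower on day 14 (-0.65) than on day 23 (-0.49). The mildest Sqle difference came on day 28, at -0.23 ± 0.20 for the brighter probe.

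Hmgcs1 was the brightest of the set, at 13.76, 13.85, 14.00 and 14.11 in healthy mice. Its day 21 values of 13.45, 12.91, 13.32, 13.64 and 12.85 were all lower than these, with a difference of -0.70 ± 0.15, or 61.7% of the healthy signal. On day 14 no mouse (13.15 to 13.75) reached the lowest healthy mouse either. On days 16 and 28 the differences were only -0.12 and -0.16, and both 95% intervals included 0.

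Idi1 was dim, and above background on 33 of 34 arrays. It measured 5.59, 4.38, 6.26, 6.43 and 5.33 on day 21, against 6.51, 6.94, 6.25 and 7.25 in healthy mice, so that 2 of the day 21 mice lay within the healthy range. Its difference was -1.14 ± 0.31, or 45.3% of the healthy signal. On day 16 Idi1 was at -0.06 ± 0.31 from healthy mice, with 4 mice between 6.80 and 6.90 and 1 at 5.91.

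The 1 stretch of promoter sequence shown for the enzymes is that of Hmgcs1, because it carries the short motif through which SREBP factors are known to act on sterol genes. Windows of 250 bases upstream of an annotated start were available for 6 members in the RefSeq annotation of GRCm38.p6 (Hmgcs1, Idi1, Lss, Insig1, Abcg5 and Abcg8). The motif TCACNCCAC was searched on both strands. Only the Hmgcs1 window held it, once, beginning 137 bases before the start, and 1.05% of all 32851 windows held it. The Hmgcs1 window lies on chromosome 13, chr13:119690101-119690350, on the + strand, and the capitals mark the motif.
Hmgcs1 upstream: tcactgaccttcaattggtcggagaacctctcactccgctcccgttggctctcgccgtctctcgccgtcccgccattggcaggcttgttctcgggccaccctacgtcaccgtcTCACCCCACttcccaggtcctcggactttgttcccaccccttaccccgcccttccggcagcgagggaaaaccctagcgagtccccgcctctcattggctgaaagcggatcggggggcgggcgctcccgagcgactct
CCAAT, the box bound by NF-Y, which acts beside SREBP at sterol genes, occurred on either strand in the Hmgcs1, Idi1, Lss, Insig1 and Abcg8 windows and in 33.8% of all windows. GGGCGG, a box of the Sp1 factors, occurred in the Hmgcs1, Idi1, Lss and Insig1 windows and in 32.7% of all, and the E-box CACGTG in the Insig1 window and in 6.02% of all, on either strand. In the Hmgcs1 window none of these matches overlapped TCACCCCAC. A match is a string of letters and was not tested for binding.

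The probes of Insig1 disagreed. The brightest gave means of 8.86 to 9.17 on the TNBS days, against 9.17 in healthy mice, and its differences lay between -0.31 and 0.00. Both other probes that passed the filter were well below the healthy level on every day. The next brightest gave 8.01, 6.89, 7.23, 8.24 and 7.43 on day 21, against 9.26, 8.47, 9.07 and 8.63 in healthy mice, without overlap, and its differences ran between -0.71 ± 0.22 on day 28 and -1.30 ± 0.22 on day 23. For the dimmest of the 3, the differences ran between -0.64 ± 0.24 and -1.33 ± 0.24, also on days 28 and 23. With the next brightest probe all 5 mice lay below all healthy mice on 5 of 6 days, and with the brightest on 0. The parts of the transcript that the probes read were not compared here.

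The means of Abcg5 and Abcg8 were ordered differently over the days. Abcg5 measured 8.08, 8.60, 8.80, 8.46 and 6.87 on day 23, against 10.46, 10.55, 10.84 and 10.51 in healthy mice. The lowest healthy mouse was over 1 log2 unit above the highest day 23 mouse. The difference was -2.42 ± 0.47 (95% interval -3.39 to -1.46), which is 18.6% of the healthy signal. Over days 9, 14, 16, 21, 23 and 28 the differences of Abcg5 were -1.36, -1.03, -1.67, -0.56, -2.42 and -1.58, each with an SE of 0.47. Mice on 5 of the 6 days all lay below all healthy mice. Day 21 was the exception, where the values were 9.63, 11.04, 9.22, 9.57 and 10.65, so that mouse 2 was above every healthy mouse and mouse 5 lay among them.

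Abcg8 ran parallel at a dimmer level. Its values were 4.62, 4.99, 5.75, 4.43 and 2.32 on day 23, against 7.60, 6.93, 7.60 and 7.09 in healthy mice, a difference of -2.88 ± 0.65. Mouse 5 was at the lower limit of the scale and only 2 of the 5 day 23 mice were above background, so the size of this difference depends on that limit (-2.48 with a limit of 20, and -2.13 for log2 of the value plus 16). The differences over days 9, 14, 16, 21, 23 and 28 were -1.68, -1.13, -2.34, -0.68, -2.88 and -2.01. On day 21 its mice 2 and 5, at 7.76 and 7.48, were again the highest, and the other 3 lay between 5.63 and 6.30. On day 9, 3 of the 5 arrays carried skeletal muscle markers. Over the remaining 2 mice, 1 and 4, the differences were -1.98 for Abcg5 and -2.49 for Abcg8, against -1.36 and -1.68 over all 5. Those of the enzymes were nearer to 0, at -0.21 for Hmgcs1, -0.46 for Idi1, -0.27 for Sqle and -0.22 for Lss. Mice 1 and 4 carried other markers, however. Their small intestinal enterocyte markers averaged 6.81 and 7.31, against 4.80 to 5.24 in healthy mice. Squamous epithelium markers averaged 8.87 in mouse 4, against 4.03 to 5.10 in healthy mice. The part of these markers in the differences was not tested. All levels here are those of whole tissue, in which fewer cells of a type and less RNA per cell cannot be told apart.

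**Figure D2:**
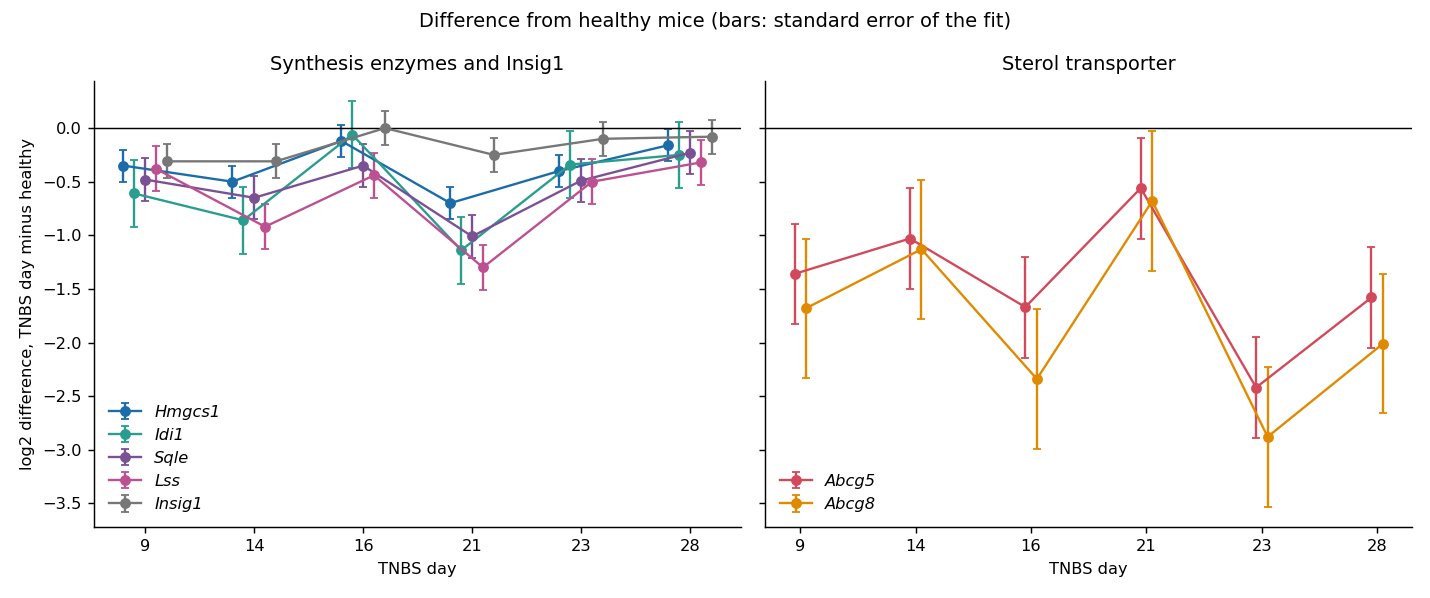
Difference between each TNBS day and the healthy mice in log2 units (y axis) by day (x axis), with the synthesis enzymes and Insig1 at left and the transporter genes at right. Points are differences of means (5 TNBS mice, 4 healthy mice), bars are the standard error of the fit, and all points of a gene share the same healthy mice. The enzymes reach -0.70 to -1.30 on day 21, where Abcg5 (-0.56) and Abcg8 (-0.68) come nearest to the healthy level.

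The sequence between Abcg5 and Abcg8 is shown because the genes lie head to head. In RefSeq (GRCm38.p6) Abcg5 starts at 84683011 on the - strand of chromosome 17 and Abcg8 at 84683121 on the + strand, so that 109 bases separate the starts, chr17:84683012-84683120, and a further Abcg8 start is annotated inside the Abcg5 gene. AGATAA, a motif of the GATA factors that are active in intestinal epithelium, was searched on both strands. It occurred 2 times in the stretch, both on the - strand, and at least once in 9.99% of all 250-base windows, which are longer than the stretch. Binding at these matches was not tested, nor was a part of the stretch in the levels of the 2 genes. No motif of LXR was searched. The capitals mark it, as TTATCT when read on the + strand.
between Abcg5 and Abcg8 starts: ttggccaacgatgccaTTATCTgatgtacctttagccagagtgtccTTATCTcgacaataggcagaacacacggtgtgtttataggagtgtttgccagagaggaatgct

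Deviations of each mouse from the mean of its own group were compared next, since they do not depend on the differences between groups by which the members were known. Over the 34 mice the deviations of Abcg5 and Abcg8 correlated with r = 0.92 (Spearman's rho = 0.93, permutation test within groups, p = 1e-05, which is the smallest that 100000 permutations can give, adjusted p = 0.0001 over 21 pairs of members). None of 21100 probes of other genes followed Abcg5 within groups as closely as Abcg8 did, and none followed Abcg8 as closely as Abcg5. Without the 2 mice farthest from the median r was 0.90. Without the arrays with muscle markers it was also 0.90, over 29 mice.

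The enzymes also varied together within groups. All 6 pairs among Hmgcs1, Idi1, Sqle and Lss had an r between 0.60 and 0.82 (permutation test, adjusted p between 0.0001 and 0.0084) and a rho between 0.52 and 0.77 (adjusted p between 0.00021 and 0.024). Without the 2 farthest mice r remained between 0.52 and 0.76. For Sqle with Lss r was 0.82, which 5 of the 21100 other probes matched for Sqle and 2 for Lss. Hmgcs1 with Sqle also reached 0.82, and none of the other probes came as close to Hmgcs1. Insig1, by its brightest probe, had an r of 0.22 to 0.46 with the enzymes, and 0 of these 4 pairs passed after adjustment (adjusted p between 0.052 and 0.39). The arrays of a mouse are shared by both genes of a pair, so technical variation of an array enters both values.

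Between the arms the sign was negative but not past the test. Lss with Abcg8 had r = -0.40 (rho = -0.40, permutation test, adjusted p = 0.073 and 0.066), and Sqle with Abcg8 had r = -0.39 (rho = -0.38, adjusted p = 0.082 and 0.098). The other 6 pairs of an enzyme with Abcg5 or Abcg8 had an r between -0.12 and -0.33 (adjusted p between 0.14 and 0.57). In Lss with Abcg8, r was -0.37 without the 2 farthest mice. Single groups differed in this. On day 21 mice 2 and 5 had the lowest Hmgcs1, Idi1, Sqle and Lss and the highest Abcg5 and Abcg8 of their group, and mouse 5 is one of the arrays with muscle markers. On day 14 the arms went together instead, as mouse 4 was lowest in all 4 enzymes and in Abcg5 and Abcg8, and mouse 1 lay above the mean of the group in all 6. The array of day 14 mouse 4 differed in tissue content. Its squamous epithelium markers averaged 9.36, against 4.77 to 5.42 in the other day 14 mice. The part of this in its levels was not tested.

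**Figure D3:**
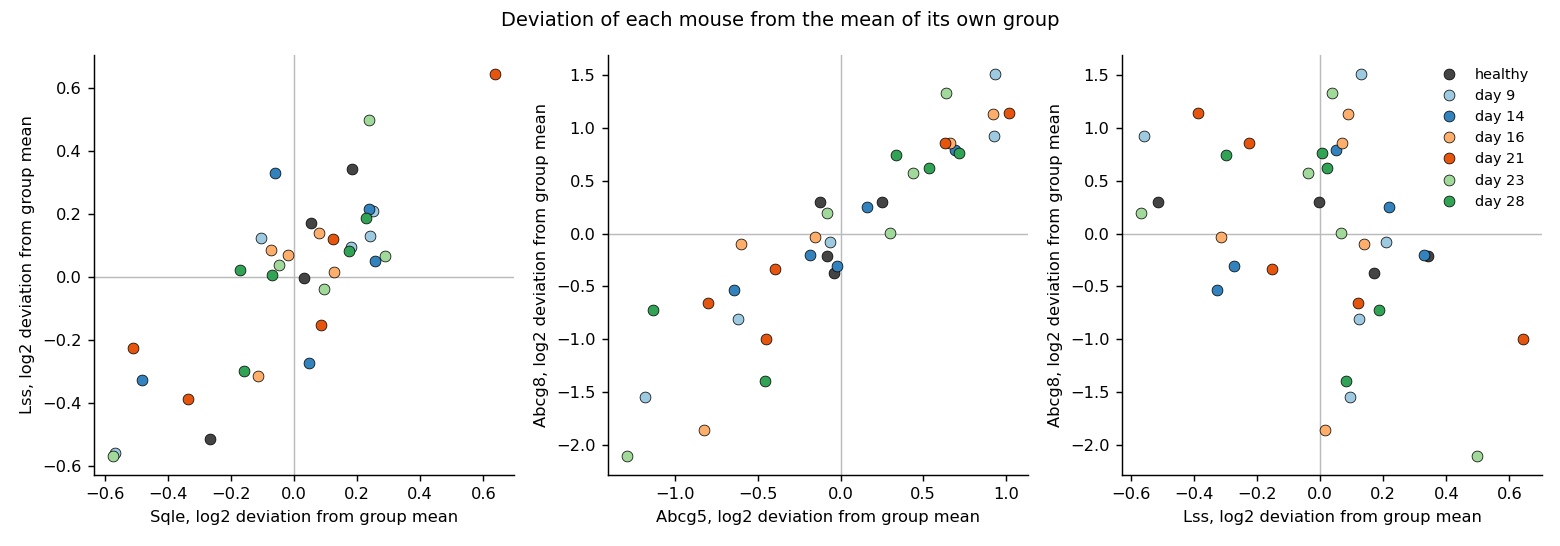
Log2 deviation of each of the 34 mice from the mean of its own group, for Sqle and Lss (left), Abcg5 and Abcg8 (middle) and Lss and Abcg8 (right), coloured by group. The first 2 pairs rise together (r = 0.82 and r = 0.92), and the third leans the other way with much scatter (r = -0.40).

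Mice 2 days after an instillation were then set against mice 7 days after it, a comparison that holds no healthy mice but shares the TNBS mice with the descriptions above. Over the 3 cycles Lss was higher 2 days after, with a mean of 8.93 in 15 mice, against 8.52 in 15 mice 7 days after (log2 difference 0.41 ± 0.11, limma, adjusted p = 0.030), and 13 of the 15 lay above the mean of the later mice. Of the 7 genes this was the only one past the test, while 3.41% of all genes were higher and 2.93% lower in this comparison. Abcg5 went the other way, with a mean of 8.77, against 9.53 in mice 7 days after (-0.76 ± 0.26, adjusted p = 0.079), and so did Abcg8, with 5.00, against 6.03 in mice 7 days after (-1.03 ± 0.35, adjusted p = 0.087). Abcg8 was above background in 10 of the 15 earlier mice and in 13 of the 15 later ones. Differences of 0.41 ± 0.17 for Idi1 (adjusted p = 0.18), 0.16 for Hmgcs1 (adjusted p = 0.30), 0.19 for Sqle (adjusted p = 0.38) and 0.07 for Insig1 (adjusted p = 0.73) did not pass. The call for Lss was lost, at an adjusted p of 0.051 to 0.054, without day 14 mouse 4, day 21 mouse 2, day 21 mouse 5, day 23 mouse 5 or day 28 mouse 3. Without day 9 mouse 2, whose Abcg5 was among the highest of its day, both Abcg5 (-0.84, adjusted p = 0.043) and Abcg8 (-1.15, adjusted p = 0.041) passed, and without day 28 mouse 1 Abcg5 did (-0.85, adjusted p = 0.041).

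Of the single cycles, the second gave the only calls among the members. On day 16 Lss measured 9.00, 9.07, 9.02, 8.62 and 8.95, against 7.92, 7.68, 8.19, 8.71 and 7.84 on day 21, with only day 21 mouse 4 inside the day 16 range (log2 difference 0.86 ± 0.20, limma, adjusted p = 0.027). Hmgcs1 measured 13.82, 13.92, 13.72, 13.71 and 13.90 on day 16, against 13.45, 12.91, 13.32, 13.64 and 12.85 on day 21, without overlap (0.58 ± 0.14, adjusted p = 0.040). Of all genes 0.814% were higher and 0.628% lower in this comparison. Idi1 (1.08 ± 0.30, adjusted p = 0.063) and Sqle (0.65 ± 0.19, adjusted p = 0.078) had differences of like size that did not pass, and Insig1 had 0.25 (adjusted p = 0.46). Abcg5 was at -1.11 ± 0.44 (adjusted p = 0.21) and Abcg8 at -1.66 ± 0.61 (adjusted p = 0.17).

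These calls were close to the threshold. Both were lost in a fit of only the 2 groups (adjusted p = 0.074 for Lss and 0.11 for Hmgcs1) and without the arrays with muscle markers (0.81, adjusted p = 0.074 for Lss, and 0.49, adjusted p = 0.13 for Hmgcs1). They were also lost without day 16 mouse 1, 2 or 5 or day 21 mouse 1, 2 or 5, with an adjusted p of 0.055 to 0.098 for Lss and 0.058 to 0.15 for Hmgcs1, and Hmgcs1 was also lost without day 16 mouse 4 (adjusted p = 0.055). Without day 21 mouse 4, Idi1 (1.29, adjusted p = 0.024) and Sqle (0.81, adjusted p = 0.021) passed as well. Idi1 also passed without day 21 mouse 3 (1.24, adjusted p = 0.037) and without day 16 mouse 4 (1.27, adjusted p = 0.047).

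The first and the third cycle gave no call. For day 9 against day 14, where 0.785% of all genes changed, 0 of 7 members passed in limma and 1 (Lss, 0.54 ± 0.20) had an unadjusted p under 0.05, as did 12.4% of all genes. For day 23 against day 28, where 1.66% of all genes changed, 0 passed, 0 were under 0.05 unadjusted, against 13.2% of all genes, and all 7 differences were negative. This holds for the brightest probes. The dimmer Sqle probe (-0.51) and both other Insig1 probes (-0.59 and -0.69) were under 0.05 unadjusted, but did not pass (limma, adjusted p between 0.14 and 0.35). The difference between the third and the first cycle was itself compared. It was -0.73 ± 0.28 for Lss (limma, adjusted p = 0.49), 0 of 7 members passed and 1 was under 0.05 unadjusted, while of all genes 0.0642% passed and 8.34% were under 0.05 unadjusted. Both dimmer Insig1 probes were also under 0.05 unadjusted here (-0.72 and -0.69, adjusted p = 0.54 and 0.59), and the brightest was not (-0.01).

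**Figure D4:**
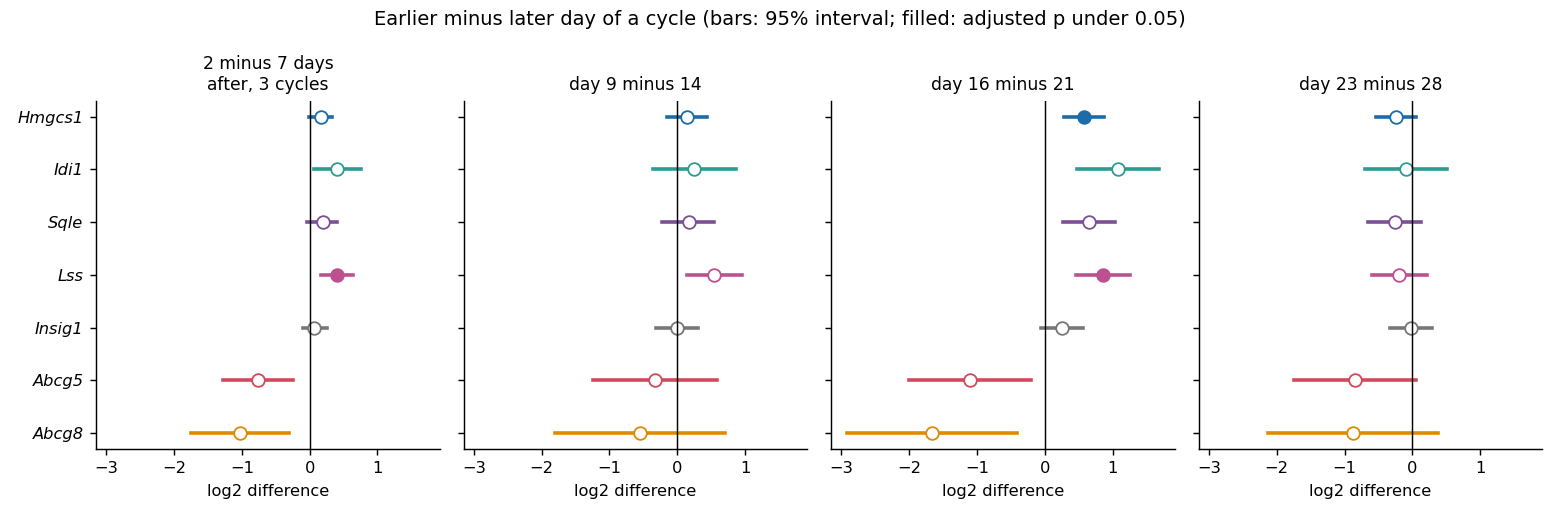
Log2 difference between the earlier and the later day of a cycle (x axis) for the 7 genes (y axis), pooled over the 3 cycles at left and for each cycle. Bars are 95% intervals of the fit and filled points passed limma's test at an adjusted p under 0.05 over all genes. Lss passed in the pooled comparison (0.41), and Lss (0.86) and Hmgcs1 (0.58) passed for day 16 against day 21.

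Nor did the members differ past the test between early and late stages of the model. For day 23 against day 9, 0 of 7 passed in limma and 1 was under 0.05 unadjusted (Abcg5, with means of 8.16 on day 23 and 9.23 on day 9), while of all genes 0.178% passed and 9.87% were under 0.05 unadjusted. For day 28 against day 14, 0 of 7 passed and 4 were under 0.05 unadjusted, while of all genes 0.0143% passed and 8.29% were under 0.05 unadjusted. These 4 were the enzymes, with differences of 0.34 for Hmgcs1, 0.61 for Idi1, 0.41 for Sqle and 0.60 for Lss (adjusted p between 0.37 and 0.62). The linear trend per week over the 6 days was between -0.21 and 0.09 on the log2 scale for the 7 genes. Of these 0 passed in limma and 0 were under 0.05 unadjusted, while of all genes 0.178% passed and 8.55% were under 0.05 unadjusted.

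The rest of the synthesis chain was read from a list of 16 other enzymes, of which 12 had a probe that passed the filter. On day 21, 3 of 12 fell and 0 rose relative to healthy mice, with a median difference of -0.64 over the list and 0.00 over all genes, and 11 of 12 differences were negative. Of all genes 0.450% fell and 0.371% rose on that day. Msmo1, which removes methyl groups from the sterol ring, averaged 8.53 on day 21, against 9.58 in healthy mice (-1.06 ± 0.17, limma, adjusted p = 0.0019). Hsd17b7, which acts in the same demethylation, averaged 9.34, against 10.18 in healthy mice (-0.84 ± 0.12, adjusted p = 0.0010), and Cyp51, the lanosterol demethylase, 9.15, against 10.01 in healthy mice (-0.86 ± 0.21, adjusted p = 0.043). Fdps, which makes farnesyl diphosphate, did not pass at -0.80 ± 0.22 (adjusted p = 0.088).

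On day 14, 2 of 12 fell and 0 rose, while 0.236% of all genes fell and 0.271% rose. They were Msmo1 (8.69, against 9.58 in healthy mice, adjusted p = 0.015) and Hsd17b7 (9.51, against 10.18 in healthy mice, adjusted p = 0.013). On day 23 Hsd17b7 (-0.44 ± 0.12, adjusted p = 0.025) and Dhcr7, the last reductase of the chain (-0.60 ± 0.17, adjusted p = 0.027), fell, among 3.53% of all genes that fell and 4.10% that rose. On days 9, 16 and 28, 0 of 12 passed in limma, and 2, 1 and 1 were under 0.05 unadjusted, against 15.7%, 17.8% and 14.2% of all genes. Over the 6 days 4 of the 12 changed on at least 1 day, against 9.94% of all genes.

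Day 16 against day 21 gave the clearest count for these other enzymes. All 12 differences were 0 or above, with a median of 0.49, and 5 of 12 were past the test and higher on day 16, against 0.814% of all genes. Mvd, which makes isopentenyl diphosphate, averaged 9.02 on day 16 and 8.06 on day 21 (0.97 ± 0.23, limma, adjusted p = 0.038). Fdps averaged 12.25 on day 16 and 11.34 on day 21 (0.91 ± 0.21, adjusted p = 0.031). The differences were 0.81 for Msmo1, 0.80 for Cyp51 and 0.57 for Hsd17b7 (adjusted p between 0.014 and 0.038). The 5 became 1 without the arrays with muscle markers, 0 without day 16 mouse 2 or day 21 mouse 5, 1 without day 21 mouse 2, 2 without day 16 mouse 1 or 5 or day 21 mouse 1, and 3 without day 16 mouse 3 or 4. Between mice 2 and 7 days after an instillation over all cycles, Msmo1 alone of the list passed (0.37 ± 0.09, adjusted p = 0.016).

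**Figure D5:**
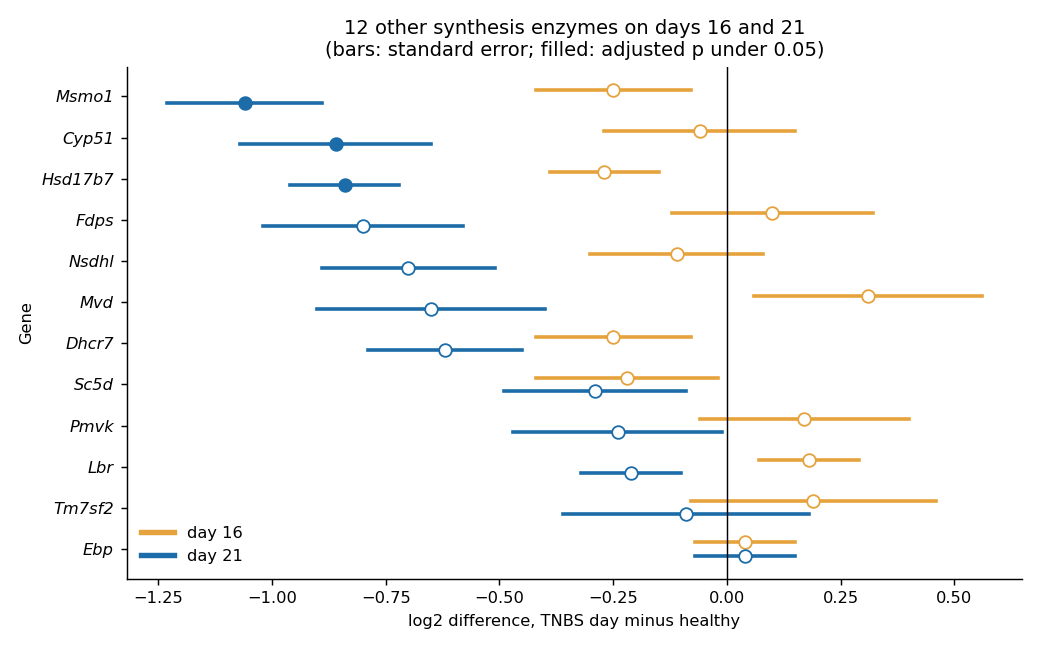
Log2 difference from healthy mice (x axis) of the 12 other synthesis enzymes (y axis) on days 16 and 21. Bars are the standard error of the fit and filled points passed limma's test over all genes. On day 21, 11 of 12 lie below 0 and Msmo1 (-1.06), Cyp51 (-0.86) and Hsd17b7 (-0.84) passed, and on day 16 none passed.

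Of 17 genes for sterol regulation and uptake, 10 were tested and 2 changed on at least 1 day, against 9.94% of all genes. Stard4, which carries cholesterol between membranes and is itself an SREBP target, fell on days 9, 14, 21 and 23 (log2 differences -0.47, -0.53, -0.54 and -0.65, limma, adjusted p = 0.036, 0.044, 0.034 and 0.0011), while of all genes 0.842% fell and 1.38% rose on day 9. Npc2, which hands cholesterol out of lysosomes, rose on day 16 (11.44, against 10.45 in healthy mice, 0.99 ± 0.20, adjusted p = 0.0049) and on day 23 (0.82 ± 0.20, adjusted p = 0.010). Neither Srebf2 nor Scap nor Insig2 passed on any day.

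Among 10 genes of LXR signalling and sterol efflux, 8 were tested and 3 changed on at least 1 day, again against 9.94% of all genes. On day 16, where 1.89% of all genes fell and 2.31% rose, Cyp27a1, the sterol 27-hydroxylase (8.75, against 9.64 in healthy mice, -0.89 ± 0.21, limma, adjusted p = 0.013), and Nr5a2, a nuclear receptor of intestinal crypts known to act on Abcg5 and Abcg8 (6.50, against 7.41 in healthy mice, -0.91 ± 0.22, adjusted p = 0.017), fell. Lpcat3, a phospholipid enzyme under LXR, rose by 0.37 (adjusted p = 0.033). On day 23 Nr5a2 again fell (-0.78 ± 0.22, adjusted p = 0.029) and Lpcat3 rose by 0.32 (adjusted p = 0.049). Nr5a2 was lower 2 days than 7 days after an instillation (6.61 at 2 days, against 7.07 at 7 days, -0.46 ± 0.12, adjusted p = 0.020). Nr1h3, the LXR gene tested, Abcg1, Apoe and Hnf4a did not pass.

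Fatty acid synthesis, the neighbouring lipid pathway, had all 10 listed genes tested and 1 that changed, close to the share among all genes (9.94%). Fads2, a desaturase, fell on day 23 (9.53, against 10.43 in healthy mice, -0.90 ± 0.19, limma, adjusted p = 0.0033). It was also lower on day 23 than on day 28 (-0.83 ± 0.18, adjusted p = 0.012) and lower 2 days than 7 days after an instillation (-0.35 ± 0.10, adjusted p = 0.038). On day 28, 0 genes of the 4 lists passed in limma, 1 of 12, 2 of 10, 2 of 8 and 0 of 10 were under 0.05 unadjusted in the order of the lists above, and of all genes 0.571% fell, 0.835% rose and 14.2% were under 0.05 unadjusted.

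The calls of these lists rest on a shared estimate of the spread. Of 19 combinations of list gene and day past the test against healthy mice, 18 were not past it in fits that held only the 2 groups compared, and Npc2 on day 16 was. Stard4 on day 14 passed in 15 and Lpcat3 on day 23 in 7 of 34 fits that each left out 1 array.

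The genes whose level over the 34 arrays was most like the mean of the 4 synthesis enzymes, among 14003 other genes, were Msmo1 (r = 0.926), Cyp51 (r = 0.904), Hsd17b7 (r = 0.888), Mvd (r = 0.853), Aacs (r = 0.853) and Fdps (r = 0.835). All but Aacs, an acetoacetyl-CoA synthetase, stood on the list of other enzymes. For the mean of Abcg5 and Abcg8 they were Sycn (r = 0.882), Slc5a6 (r = 0.876), Pbld2 (r = 0.856), H2-Q2 (r = 0.854), Cyp2f2 (r = 0.840) and Cyp2d12 (r = 0.834), none of which is on the sterol lists. Arrays of a group share its treatment, so these values describe likeness only.

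Markers of cell types differed on some of these days. Of 12 markers of colonic epithelium 11 were tested, and their mean log2 level was 11.47 to 11.79 on day 23 and 11.46 to 11.87 on day 21, against 11.77 to 11.92 in healthy mice. On day 23 4 of the 11 fell and 1 rose (limma, adjusted p under 0.05 over all probes). For 11 of 12 leukocyte markers the mean was 6.43 to 8.01 on day 23 and 5.15 to 7.62 on day 21, against 5.27 to 6.21 in healthy mice, and 2 of 11 rose on day 23. Mice 2 days after an instillation had 4 of the 11 higher than mice 7 days after it, and 3 of 6 smooth muscle markers lower. Among the leukocyte markers Tyrobp, Laptm5 and Lyz2 were above background on all 34 arrays, Cd3e on 33 and Csf3r on 30. S100a8 was on 24, Ptprc on 22, S100a9 on 19, and Itgb2 and Cxcr2 on 5 each. Itgam, a defining marker of myeloid cells, was not above background on any array. Within groups, the deviations of Abcg5 and the leukocyte mean had r = -0.46 (rho = -0.39, permutation test, adjusted p = 0.33 and 0.29 over 28 relations). For Abcg8 r was -0.41 (rho = -0.37, adjusted p = 0.37 and 0.29). Without the arrays with muscle markers, over 29 mice, r was -0.62 for Abcg5 and -0.53 for Abcg8, which was not tested. Without the 2 farthest mice it was -0.48 and -0.31. Over all mice, 0 of 28 relations between a member and 4 marker lists passed after adjustment. The part of these markers in the levels of the members was not tested.

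Of the list genes, 3 calls were lost without the 5 arrays with skeletal muscle markers. Cyp51 on day 21 was then at -0.75 (limma, adjusted p = 0.068), Stard4 on day 9 at -0.36 (adjusted p = 0.25) and Lpcat3 on day 23 at 0.32 (adjusted p = 0.056). Markers of small intestinal enterocytes, of which 4 of 8 were tested, had a mean of 5.18 to 7.31 on day 9, against 4.80 to 5.24 in healthy mice, and 2 of them rose, though Apoa4 was above background on 1 and Sis on 3 of the 34 arrays. Squamous epithelium markers, 5 of 8 tested, reached 5.42 to 10.24 on day 9, against 4.03 to 5.10 in healthy mice, and 2 rose on each of days 9, 16 and 23. On day 14 their mean was 4.77 to 9.36, with mouse 4 the highest. The squamous list was not compared with the members within groups. Of 6 fibroblast markers 2 rose on day 16 and 3 on day 23, and of 4 goblet cell markers 2 rose on day 16 and 1 on each of days 14, 23 and 28.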

How the data were processed

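RNA of the distal colon of 34 mice was measured on Illumina bead arrays, 1 array per mouse, grouped by the sample labels. The methods describe background subtraction and quantile normalization in GeneSpring, a floor of 5 and limma. The authors deposited normalised values without naming the scale, read here as log2 because of their range, and some lie below the floor. Image analysis is BeadStudio in the methods and GenomeStudio in the submitters' processing notes. A table with 68 columns named by chip position, which no source pairs with mice, was not used.

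Values were floored at 5, leaving 21110 probes that exceeded it on 4 or more arrays. One limma fit (3.58.1, R 4.3.3) held all 7 groups, with 27 residual degrees of freedom, and the Benjamini and Hochberg adjustment ran over all tested probes within a contrast, with a threshold of 0.05. The brightest probe stood for a gene. Arrays carry no read depth. Background was the 95th percentile of 1323 olfactory, vomeronasal and trace amine receptor probes per array (22.3 to 30.5, linear), and 48.5% to 52.8% of probes passed it. Array medians were 4.77 to 4.78, and arrays of a group correlated at r between 0.943 and 0.971 across probes. Deviations from group means were permuted within groups (100000 times). The steps were tested on simulated data. The mice were taken as separate animals.

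The members, lists and tests were chosen with earlier results of these data known. The text names all member probes, up to 10 genes a list past the test and the 6 most similar genes per arm. Alternatives were a floor of 20, log2 of the value plus 16, no filter, pairwise fits, eBayes with trend and robust, array weights, the mouse number as a block, the mean of a gene's probes, adjustment over 6 days, and each array left out. The removal of arrays with muscle markers and the next brightest Insig1 probe were added after seeing the data. Symbols came from the platform annotation (23978 probes with 1 symbol, 1719 not listed), and promoter windows from RefSeq (GRCm38.p6), used for sequence and gene positions.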

Additional observations from a re-analysis of the deposited data

Results flagged for a closer look

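Of 49 combinations of 7 genes and 7 groups, 3 held a mouse far from the rest of its group by Dixon's ratio, and chance flags about 1 in 20, or 2.5 of 49. On day 16 mouse 4 had an Idi1 signal of 5.91 on the log2 scale, with the next mouse at 6.80, and an Lss signal of 8.62, with the next at 8.95. On day 9 mouse 5 had an Lss signal of 8.43, with the next at 9.08, and this array was among those with skeletal muscle markers.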

How the results depend on the processing

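No result past its test turned its direction. Of the single-gene values 6, all of differences near 0, changed sign, which were Insig1 2 against 7 days after (0.07, but -0.07 with the next brightest probe and -0.06 with the mean of its probes), Idi1 on day 16 (-0.06, but 0.11 without healthy mouse 4 and 0.13 without day 16 mouse 4), and, without healthy mouse 2, Insig1 on day 23 (-0.10, then 0.02) and day 28 (-0.08, then 0.04). Insig1 on day 16, at 0.00, ran from -0.16 to 0.12 with each array left out. Fits of only the groups compared gave 0 members and 0 other synthesis enzymes for day 16 against 21 (2 and 5 in the fit of all groups), 1 other synthesis enzyme against healthy (4), 0 LXR and efflux genes (3) and 0 fatty acid genes (1). That 1 enzyme passed in a combination of gene and day that was not called in the fit of all groups. Array weights gave 4 members for day 16 against 21 and 5 list genes 2 against 7 days after (3). The mouse number as a block gave 3 other enzymes for day 16 against 21. Same-numbered mice of different groups did not deviate together (mean r 0.008), so the numbers do not pair them. The mean of a gene's probes raised the 14 combinations without overlap to 22. Without the arrays with muscle markers, day 16 against 21 held 0 members and 1 other enzyme. With each array left out, the counts ranged from 14 to 23 for combinations without overlap, 0 to 3 for members 2 against 7 days after, 0 to 4 for members on day 16 against 21, 0 to 7 for other enzymes there, 2 to 6 for other enzymes against healthy, 1 to 3 for LXR and efflux genes, and 2 to 4 for list genes 2 against 7 days after. The causes were not tested. Precision is limited by having 4 or 5 mice a group, and Abcg8 was above background on 27 of 34.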
